A study of Mus musculus with 16 samples.

Results

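The peaks described here are the ATAC-seq peaks of mouse embryonic stem (ES) cells that lie in exons or at gene ends, away from promoters. They were taken from a table of 70150 peaks by 2 criteria. The nearest annotated transcription start site (TSS) had to be more than 3000 bp away, and the authors' second HOMER annotation had to begin with exon, TTS (transcription termination site), 3' UTR or 5' UTR. This left 2132 peaks (3.04% of all), of which 1043 were exon peaks and 1080 were gene-end peaks (595 TTS and 485 3' UTR), with 9 5' UTR peaks besides. Chromatin of E14 mouse ES cells was assayed in 4 genotypes with 4 libraries each. WT cells were set beside AID-Zzz3 and AID-Yeats2, in which a subunit of the ATAC histone acetyltransferase complex carries an auxin-inducible degron, and beside a Supt7l KO, which lacks a subunit of the SAGA complex. Per the labels all cells, WT included, received auxin for 24 h. The medium held serum, LIF at 1500 U/ml, the GSK3 inhibitor CHIR99021 at 3 µM and the MEK inhibitor PD0325901 at 1 µM. The series text speaks of 2 clones and 2 days, but its sample numbers could not be matched to the 16 libraries, so the p-values take a line's 4 libraries to be independent and measure the spread between them, which may be technical. No peak of the set lay at Zzz3, Yeats2 or Supt7l, so the peaks hold no check of the targeted genes.

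In ATAC-seq the Tn5 transposase inserts adapters where DNA is not covered by nucleosomes, so that read counts follow how open a stretch is. Open chromatin inside exons or past the end of a gene can mark an enhancer embedded in coding sequence, an internal or antisense promoter, a binding site of a structural factor such as CTCF, or the region where RNA polymerase stops. ATAC and SAGA are both coactivators that acetylate histones at promoters and enhancers. They share subunits of the acetyltransferase module and differ in other subunits. In ES cells they have been studied for their part in transcription and self-renewal.

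Of 32851 RefSeq start windows of 300 bases (GRCm38.p6), 16 overlapped a peak of the set, and in 14 the start base itself lay inside the peak. The start belonged to a predicted Gm gene in 13 of the 16 and to a named gene in the others, while the nearest TSS of the annotation behind the distances lay over 3000 bp away. The 30 bases around 6 of these starts are shown because an exonic or gene-end peak meets a RefSeq start there. The 15 bases before the start are in lower case and the capitals run from the start base. The first lies in the peak that was called in Supt7l KO, and the rest include the windows with the fewest and the most CG dinucleotides.
Zmiz1 exon 23, start of Gm52102, chr14:25661253-25661282, minus strand: tgccagcgtggggcaTCTGTGGAGGAGGAG
Bdnf exon, internal start of Bdnf, chr2:109722906-109722935, plus strand: cccagccctctagccACTACCGTTTCCATC
Lims1 exon, internal start of Lims1, chr10:58371439-58371468, plus strand: gtgtttcagccgactGGCCTGGCCTGCTTT
H2bc6 gene end, start of H2bc6, chr13:23585956-23585985, minus strand: ctttttcttcctaagAAAGAGATCTGAAGA
Has1 exon, start of Gm36907, chr17:17850226-17850255, plus strand: ctcagcgcggttgccGTCCACCACCATGAG
Casz1 exon, start of Gm13205, chr4:148952308-148952337, minus strand: ggactccccagcggtGGCTGTGGCTGTGGC

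The 300-base windows held a median of 11 CG dinucleotides, against 7 over all windows, with a range from 2 at Lims1 to 35 at Casz1. The window at Zmiz1 held 10, that of Bdnf 8, that of H2bc6 7 and that of Has1 28. Among the peaks printed, WT levels in CPM (counts scaled to library size) were 13.9 ± 1.64 at Bdnf, which encodes a neurotrophin, and 12.3 ± 2.11 at Lims1, which encodes an adaptor of integrin adhesions (SD, n = 4). They were 19 ± 2.79 at the histone gene H2bc6, 23.7 ± 0.738 at Has1, a hyaluronan synthase gene, and 5.69 ± 1.47 at Casz1, a zinc finger transcription factor gene. Of the 16 peaks, Zmiz1 alone passed the test in any mutant against WT.

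Exon peaks lay mostly in inner exons. Of the 1043, 680 (65.2%) lay in an inner exon, 362 (34.7%) in the last exon and 1 in a first exon, and the host transcript had a median of 11 exons. Where a peak could be placed along its gene, 240 of 786 exon peaks (30.5%) lay in the last 10% of the gene and 7 in the first 10%. The rule on distance itself keeps peaks away from starts. Of the gene-end peaks, 743 of 835 (89%) were in the last 10% or past the end, and 392 (46.9%) had their centre past it. Nearly all 3' UTR peaks (481 of 485) were in the last exon. The 2132 peaks belonged to 1946 genes, 1778 of them with 1 peak and 18 with 3, and 2064 peaks (96.8%) were in protein-coding genes. For 1199 peaks (56.2%) the gene they lay in had the same symbol as the gene of the nearest TSS. The others may include the same gene under another symbol, and 17 of the 2132 peaks had no matched gene. How many had a neighbour's start nearest was therefore not determined.

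**Figure D1:**
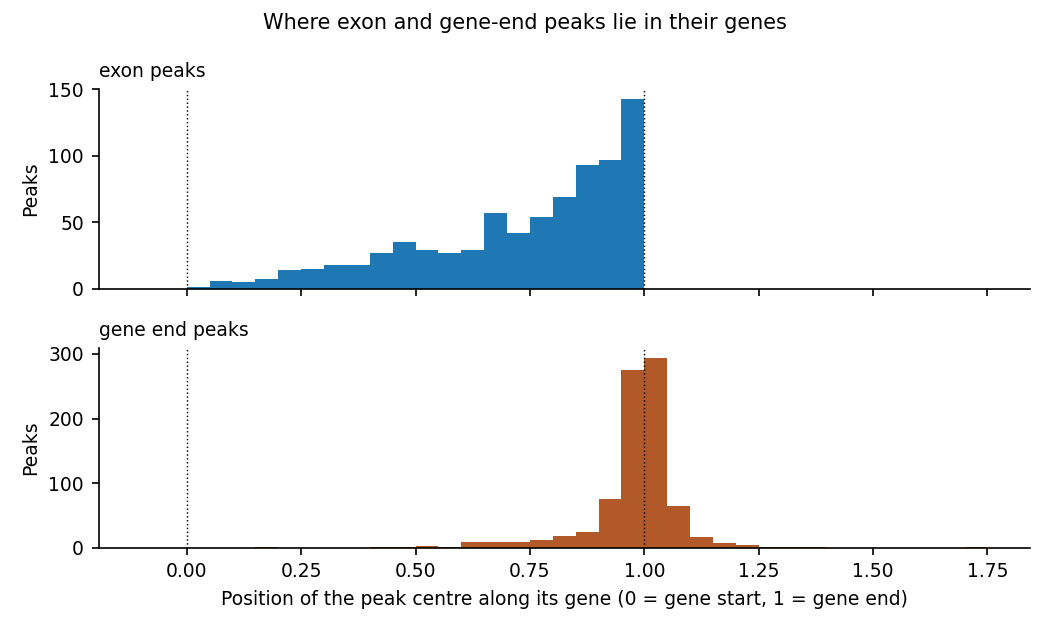
Position of the centre of each exon peak (upper panel, 786 peaks) and gene-end peak (lower panel, 835 peaks) along its gene, as the number of peaks per bin, where 0 is the gene's start and 1 its end. Exon peaks become more frequent toward the end and gene-end peaks cluster around it, 392 of them past it.

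The distance criterion kept close and far peaks alike. Of the exon peaks, 569 (54.6%) lay within 10000 bp of the nearest TSS and 43 lay over 50000 bp away, against 657 (60.8%) and 39 of the gene-end peaks. The median distance to the nearest other peak was 7440 bp for exon peaks and 6919 bp for gene-end peaks, against 7975 bp for all peaks. Just inside the limit, over 3000 and up to 3500 bp, 151 peaks had a median WT level of 8.6 CPM, and just outside, in a window of equal width that ends at 3000 bp, 169 peaks of the same annotation had 9.2 CPM.

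Some properties of the libraries bear on the results. The 16 libraries held 2492045 to 5540559 counts in peaks and 60658 to 129430 in the set. All 48 correlations of deviations from the genotype means were positive within replicates 1 and 2 or within 3 and 4 (0.0163 to 0.111), and all 48 between these sets were negative (-0.109 to -0.0167), so values within each set are given beside the pooled counts. They were chosen after the data were seen. Distal chromosome 14 (from 60 Mb, 1594 peaks tested) and distal chromosome 17 (from 70 Mb, 739 peaks tested) also shifted as blocks. On the log2 scale, relative to the WT mean, distal 14 stood at 0.20, -0.24, -0.19 and 0.27 in WT 1 to 4, at -0.21 to -0.12 in the AID lines and at 0.29 to 0.39 in Supt7l KO. Distal 17 stood at -0.27, 0.26, 0.31 and -0.25 in WT, at 0.28 to 0.33 in the AID lines and at -0.54 to -0.45 in Supt7l KO. The 36 tested peaks of the set in the first block and the 25 in the second are named where they were called. As to identity, all 10 ES cell marker genes had a promoter peak (summed level 336 to 378 CPM in WT and 382 to 402 in Supt7l KO), against 3 of 8 fibroblast markers (31.7 to 36.3 CPM in WT, 30.8 to 50.5 in the mutants), with no promoter peak at Col3a1, Thy1, Postn, Lum or Dcn. Promoter peaks were also found at 4 of 4 neuroectoderm markers (138 to 161 CPM in WT), 4 of 6 primitive endoderm markers (162 to 203, none at Gata4 or Sox7), 3 of 4 mesendoderm markers (71 to 96.6, none at T) and 3 of 5 trophoblast markers (74.1 to 87.4, none at Hand1 or Krt8). These sums run over unlike numbers of genes, so they do not rank the cell types by level. The part of any other cell type in the results was not tested.

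Exon peaks were wider than gene-end peaks, and less dense once width was allowed for. The median width was 762 bp for exon, 569 bp for TTS and 594 bp for 3' UTR peaks, against 706 bp over all peaks. Per peak the median WT level was 9.52 CPM for exon, 7.18 for TTS and 7.66 for 3' UTR peaks, which lay near intron (7.5) and intergenic (7.89) peaks and below the 20 CPM of peaks within 1000 bp of a TSS. Per kilobase of peak the order turned: the median was 13.1 ± 0.183 CPM per kb for exon and 14 ± 0.194 for gene-end peaks over the 4 WT libraries. The ratio of exon to gene-end level per kb was 0.936 ± 0.0134 in WT, 0.961 ± 0.0313 in AID-Zzz3, 0.947 ± 0.0166 in AID-Yeats2 and 0.958 ± 0.0259 in Supt7l KO (SD, n = 4), while per peak it was 1.29 in WT. The order of the 4 genotypes in this ratio was within their spread.

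The peaks with the highest WT density in each class were at genes of varied function. Among exon peaks these were the last exon of the zinc finger gene Zbtb45 (48.7 ± 11.2 CPM per kb), exon 5 of 7 of Gsta3, a glutathione transferase gene (47.5 ± 2.2), the last exon of the NF-kappa-B subunit gene Nfkb1 (44 ± 1.45) and exon 2 of 10 of Ube2cbp (40.7 ± 8.01). Among TTS peaks they were those of Pdk4, a kinase that restrains pyruvate dehydrogenase (55.1 ± 7.44 CPM per kb), Adprh (54.2 ± 2.99), the phosphate transporter gene Slc34a3 (44.4 ± 7.01) and Dut, which encodes dUTPase (41.7 ± 5.93). Among 3' UTR peaks they were Arnt2, a bHLH-PAS transcription factor gene (59 ± 8.99), the sialyltransferase gene St3gal2 (43.5 ± 6.58), Bmp2k (41.8 ± 5.68) and Bcat2, a branched-chain aminotransferase gene (41.7 ± 9.86). The densest 5' UTR peaks were at Smim8 (31.8 ± 5.11), Pura (18.7 ± 1.27), Pwwp3b (16.3 ± 4.14) and Rab5c (14.7 ± 4.19). None of these 16 peaks passed the test against WT except Pura in AID-Yeats2, where the level was 12.8 ± 3.27 CPM per kb (log2 change -0.58, SE 0.15, adjusted p = 0.0448; kept without AID-Yeats2 1 and lost without any other library, adjusted p 0.0559 to 0.199, and lost with loess offsets, 0.13, and library totals, 0.0577). Between the mean of the AID lines and Supt7l KO, the TTS of Adprh (log2 difference -0.49, adjusted p = 0.0416), the 3' UTR of St3gal2 (-0.35, adjusted p = 0.0145) and the 5' UTR of Smim8 (-0.43, adjusted p = 0.0236) passed. Adprh was lost without 8 of the 12 libraries and kept without AID-Zzz3 3, AID-Yeats2 2, AID-Yeats2 4 or Supt7l KO 2, St3gal2 was lost without Supt7l KO 1 or 2, and Smim8 was lost without AID-Zzz3 4, AID-Yeats2 4, Supt7l KO 2 or Supt7l KO 3 (adjusted p 0.0501 to 0.147 in all of these). With loess offsets all 3 calls were lost (Adprh 0.0547, St3gal2 0.442 and Smim8 0.126), and with scaling by library totals Adprh (0.086) and Smim8 (0.0602) were.

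Across genotypes the set took a nearly constant part of the counts. Its share was 2.33 ± 0.0323% in WT (2.29 to 2.37%), 2.4 ± 0.0297% in AID-Zzz3 (2.36 to 2.42%), 2.44 ± 0.0122% in AID-Yeats2 (2.42 to 2.45%) and 2.26 ± 0.0345% in Supt7l KO (2.21 to 2.28%). The AID-Yeats2 libraries all lay above WT, the Supt7l KO libraries all lay below it, and AID-Zzz3 overlapped it.

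To compare exon with gene-end peaks, the median log2 difference from the WT mean was taken per library. For exon peaks it was -0.012, 0.029, 0.021 and -0.0095 in WT 1 to 4 and 0.0031, 0.06, 0.079 and 0.046 in AID-Zzz3. It was 0.029, 0.082, 0.073 and 0.077 in AID-Yeats2 and -0.028, 0.019, 0.0029 and -0.044 in Supt7l KO. The mean differences from WT were thus 0.04, 0.058 and -0.02, and AID-Yeats2 alone did not overlap WT, with its lowest library at the level of the highest WT library to the digits shown. For gene-end peaks the medians were 0.053, 0.025, 0.0054 and -0.012 in WT, -0.00062, 0.049, -0.016 and 0.04 in AID-Zzz3, 0.064, 0.04, 0.037 and 0.028 in AID-Yeats2, and 0.017, 0.012, -0.039 and -0.064 in Supt7l KO. All 3 mutants overlapped WT there, with mean differences of 0.00033, 0.024 and -0.036. These medians describe the classes and carry no test.

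The difference between the classes was of the size of its spread between libraries. Exon minus gene end was -0.065, 0.0037, 0.016 and 0.0029 in WT, 0.0037, 0.011, 0.095 and 0.0056 in AID-Zzz3, -0.035, 0.042, 0.035 and 0.049 in AID-Yeats2 and -0.045, 0.007, 0.042 and 0.02 in Supt7l KO. The mean differences from WT were 0.039, 0.033 and 0.016, and every mutant overlapped WT. Within replicates 1 and 2 they were 0.038, 0.034 and 0.011, and within replicates 3 and 4 they were 0.041, 0.033 and 0.022. Both classes did part from promoters: relative to peaks within 1000 bp of a TSS, exon peaks stood 0.14 and 0.16 higher in the AID lines and 0.1 lower in Supt7l KO (difference -0.1), without overlap with WT. For gene-end peaks the corresponding differences were 0.1, 0.13 and -0.12, also without overlap. In AID-Zzz3 these differences were smaller within replicates 1 and 2 than within 3 and 4, at 0.086 and 0.19 for exon and 0.048 and 0.15 for gene-end peaks. Promoters themselves moved by -0.1, -0.1 and 0.08, introns by 0.047, 0.051 and -0.011, and intergenic peaks by 0.07, 0.074 and -0.065.

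**Figure D2:**
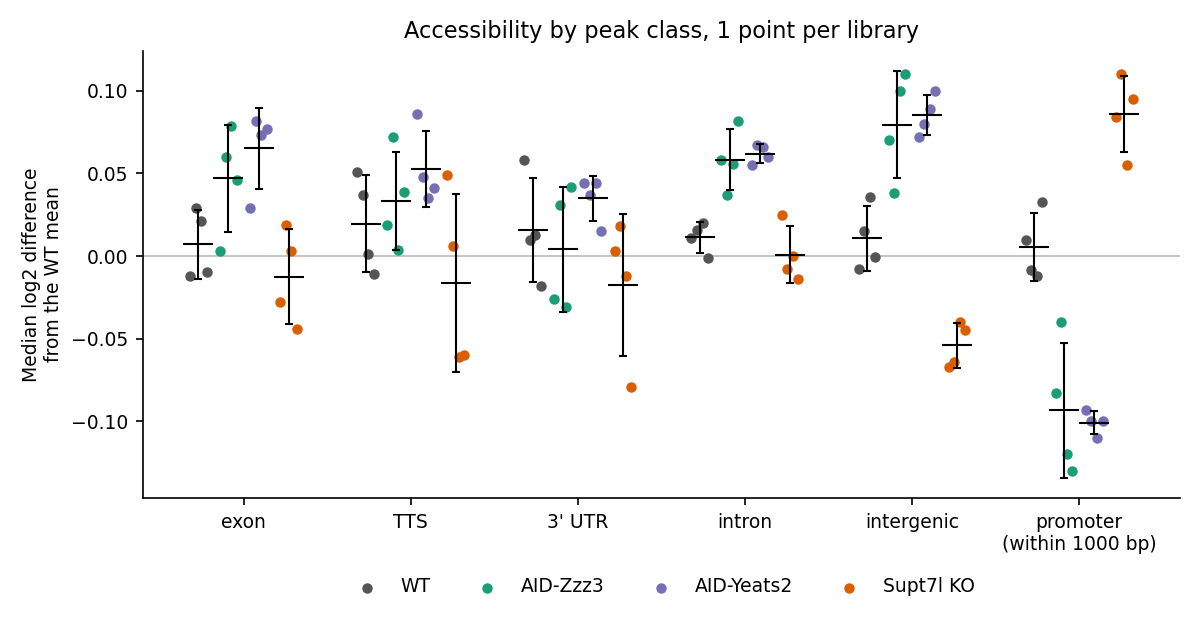
Median log2 difference from the WT mean by peak class, with 1 point per library and a bar for the mean and SD of 4 libraries of each genotype. Exon, TTS and 3' UTR points lie between -0.079 and 0.086 and their genotypes largely overlap, while the promoter points of the AID lines lie below 0 and those of Supt7l KO above 0.

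In AID-Zzz3 against WT, 17 of the 2119 tested peaks were higher and 1 was lower (edgeR quasi-likelihood test, adjusted p under 0.05 over all peaks). Over all tested peaks 0.634% were higher and 0.346% lower, or 0.98% in either direction, and 0.849% of the set was called. Higher calls also prevailed in intron peaks (0.692% higher and 0.146% lower) and intergenic peaks (0.889% and 0.171%), while promoters had 0.308% and 0.802%. Exon peaks gave 10 higher calls and none lower, TTS peaks 5 and 1, and 3' UTR peaks 2 and 0. The called exon peaks lay in the last exon in 6 cases and in an inner exon in 4. In 15 of the 18 called peaks the 4 AID-Zzz3 libraries did not overlap the 4 WT libraries. Selection by a small p favours such separation, and its share over all called peaks is not given here or below. The count of higher peaks was 10, 22, 4 and 6 without AID-Zzz3 1, 2, 3 and 4 in turn, and 4, 11, 9 and 8 without WT 1, 2, 3 and 4, and it was 0 in replicates 1 and 2 alone and 6 in replicates 3 and 4 alone. With these sets as a block 25 were higher and 7 lower.

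Among the higher exon peaks, Wdr33, a subunit gene of the machinery that cleaves and polyadenylates mRNA, had a peak in exon 9 of 22 (chr18:31879436-31880212). Its level was 6.83 ± 0.8 CPM in WT, 13.6 ± 1.43 in AID-Zzz3, 12.5 ± 1.99 in AID-Yeats2 and 7.58 ± 0.76 in Supt7l KO. The log2 change was 1 (SE 0.23, adjusted p = 0.0155; lost without AID-Zzz3 4, WT 1 or WT 2, adjusted p 0.0504 to 0.0658). The last exon of Ccdc92, a coiled-coil protein gene (chr5:124835369-124836367), held 7.34 ± 1.69 CPM in WT and 15.1 ± 2.87 in AID-Zzz3, with a log2 change of 1.04 (SE 0.24, adjusted p = 0.0169; lost without AID-Zzz3 1, AID-Zzz3 3, WT 1 or WT 4, adjusted p 0.0551 to 0.098).

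At gene ends the firmest call was the TTS peak of Thap6, a gene of the THAP zinc finger family (chr5:91972127-91972673). It held 5.59, 4.16, 4.68 and 3.82 CPM in WT, 14.6, 8.67, 12.7 and 8.75 in AID-Zzz3, 9.51, 9.44, 6.89 and 11 in AID-Yeats2, and 8.58, 6.3, 4.61 and 9.66 in Supt7l KO. Both AID lines lay wholly above WT, and Supt7l KO overlapped it by a single library. The log2 change in AID-Zzz3 was 1.26 (SE 0.27, adjusted p = 0.00838), and of the 18 calls this was the 1 kept whichever library was left out. The TTS peak of Fabp6, which encodes the ileal bile acid binding protein (chr11:43593974-43596243), was 2270 bp wide. It held 29.8, 34.4, 26.1 and 33.7 CPM in WT, 40.6, 41.9, 50.1 and 50.8 in AID-Zzz3, 40.8, 44.1, 40.6 and 47.7 in AID-Yeats2, and 21.3, 21.6, 16.3 and 20.4 in Supt7l KO. The AID lines were above and Supt7l KO below every WT library, and the log2 change in AID-Zzz3 was 0.57 (SE 0.13, adjusted p = 0.0172; lost without AID-Zzz3 3, AID-Zzz3 4, WT 1 or WT 3, adjusted p 0.0646 to 0.091). Fam13a (TTS, chr6:58932266-58932998) rose from 5.6 ± 0.241 to 12 ± 1.61 CPM, a log2 change of 1.09 (SE 0.26, adjusted p = 0.0189; lost without AID-Zzz3 3, AID-Zzz3 4, WT 1 or WT 4, adjusted p 0.0543 to 0.0914).

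The 1 lower peak was the TTS peak of Trf, the transferrin gene (chr9:103207598-103208156). It held 7.45, 11.1, 11.5 and 14.1 CPM in WT, 6.32, 6.02, 5.07 and 4.5 in AID-Zzz3, 11.5, 8.62, 5.91 and 5.07 in AID-Yeats2 and 9.81, 8.81, 6.77 and 7.73 in Supt7l KO. AID-Zzz3 lay below every WT library, and the other mutants overlapped WT. The log2 change was -1 (SE 0.27, adjusted p = 0.0434), and the call was kept without WT 1 but lost without any other library of the comparison (adjusted p 0.0512 to 0.172).

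In AID-Yeats2 against WT, 13 peaks were higher and 1 was lower, beside 0.524% higher and 0.298% lower over all tested peaks (0.822% in either direction, and 0.661% in the set). Intron peaks (0.748% higher and 0.112% lower) and intergenic peaks (0.647% and 0.138%) leaned the same way, and promoters the other (0.207% and 0.749%). Exon peaks gave 7 higher calls (4 in the last exon and 3 in inner exons), TTS peaks 2 and 3' UTR peaks 4, and none of these classes had a lower call. The lower peak was the 5' UTR peak of Pura, a gene for a protein that binds purine-rich nucleic acids, described above. In 12 of the 14 called peaks the groups did not overlap, which selection by p favours. The count of higher peaks fell to 8, 3, 8 and 3 without AID-Yeats2 1 to 4 in turn and to 1, 7, 8 and 2 without WT 1 to 4, no call was kept in every such fit, and replicates 1 and 2 alone or 3 and 4 alone gave 0. Other fits gave more calls: 29 higher and 9 lower with replicates 1 and 2 against 3 and 4 as a block, and 21 and 2 with DESeq2.

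The exon peaks named in AID-Yeats2 were at Peg3, Dennd1a and Pknox2. Peg3 is a paternally expressed imprinted zinc finger gene, and its peak was in the last of 9 exons (chr7:6710670-6711633). It held 5.03, 5.09, 7.38 and 5.5 CPM in WT, 11.5, 14.4, 10.8 and 11 in AID-Yeats2, 13.3, 6.99, 12.9 and 10.8 in AID-Zzz3 and 1.96, 2.73, 2.77 and 2.49 in Supt7l KO. AID-Yeats2 was above every WT library and Supt7l KO was below every one. The log2 change was 1.05 in AID-Yeats2 (SE 0.26, adjusted p = 0.0271; lost without AID-Yeats2 2, AID-Yeats2 4, WT 1, WT 2 or WT 4, adjusted p 0.0501 to 0.13). In AID-Zzz3 it was 0.91 (SE 0.26, adjusted p = 0.0608), which did not pass but did with DESeq2 (0.0464) and with the replicate sets as a block (0.0401). Dennd1a, an exchange factor gene of endocytic Rab GTPases, had a peak in exon 10 of 22 (chr2:38003000-38003793) at 7.27 ± 1.96 CPM in WT and 13.9 ± 1.56 in AID-Yeats2, a log2 change of 0.94 (SE 0.23, adjusted p = 0.0306; lost without AID-Yeats2 2, 3 or 4 or WT 1, 2 or 4, adjusted p 0.0589 to 0.164). Pknox2, a TALE homeobox gene, had a peak in exon 10 of 13 (chr9:36909447-36909910) that rose from 2.5 ± 0.686 to 6.46 ± 1.73 CPM. Its log2 change was 1.36 (SE 0.34, adjusted p = 0.0311), kept without AID-Yeats2 4 and lost without any other library (adjusted p 0.0525 to 0.118).

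Of the gene-end calls in AID-Yeats2, the TTS peak of Bcr, a gene best known from its fusion with ABL1 in human leukaemia (chr10:75184760-75185338), had 6.33, 5.55, 5.4 and 5.02 CPM in WT and 14.7, 12.3, 14.8 and 8.64 in AID-Yeats2. AID-Zzz3 had 8.65, 7.95, 13.8 and 8.75 and Supt7l KO had 7.85, 5.46, 5.23 and 5.25, so that AID-Yeats2 was wholly above WT and Supt7l KO overlapped it. Bcr changed by 1.16 on the log2 scale (SE 0.26, adjusted p = 0.0111; lost without AID-Yeats2 3 or WT 4, adjusted p 0.0513 to 0.0575). The TTS peak of Ugcg, the gene of the enzyme that makes glucosylceramide (chr4:59222969-59223699), rose from 4.19 ± 0.249 to 9.78 ± 2.57 CPM, a log2 change of 1.22 (SE 0.28, adjusted p = 0.0171; lost without AID-Yeats2 2, AID-Yeats2 4 or WT 1, adjusted p 0.058 to 0.0932). The 3' UTR of Lats1, a kinase gene of the Hippo pathway (chr10:7714766-7715745), held 15.1, 19, 18.5 and 12.9 CPM in WT, 30.1, 33.1, 21.7 and 25 in AID-Yeats2, 21, 15.9, 22.8 and 25.8 in AID-Zzz3 and 32.1, 23.3, 24 and 21 in Supt7l KO. Here Supt7l KO was also above every WT library. In AID-Yeats2 the log2 change was 0.74 (SE 0.18, adjusted p = 0.0203; lost without AID-Yeats2 1, AID-Yeats2 2, WT 1 or WT 4, adjusted p 0.0527 to 0.139) and in Supt7l KO 0.61 (SE 0.18, adjusted p = 0.0619), which did not pass.

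In Supt7l KO against WT the balance was the other way, with 4 peaks higher and 14 lower, beside 0.342% higher and 0.745% lower over all tested peaks (1.09% in either direction, and 0.849% in the set). Lower calls also prevailed in intron peaks (0.326% higher and 0.675% lower) and intergenic peaks (0.267% and 1.19%), but not at promoters (0.494% and 0.366%). Exon peaks gave 4 higher and 6 lower calls, 8 of the 10 in inner exons. The 8 gene-end calls, 5 TTS and 3 3' UTR, were all lower. In 14 of the 18 called peaks the groups did not overlap, which selection by p favours, and 3 calls were kept whichever library was left out. The count of lower peaks moved to 9, 6, 9 and 6 without Supt7l KO 1 to 4, to 5 without WT 2 and to 4 without WT 3. That of higher peaks moved to 1 without Supt7l KO 2, to 2 without Supt7l KO 4, to 1 without WT 2 and to 0 without WT 3. Replicates 1 and 2 alone gave 0 higher and 2 lower, and replicates 3 and 4 alone gave 1 and 3. Outside the distal blocks of chromosomes 14 and 17 there were 3 higher and 12 lower peaks, and the shares over all peaks outside them are not given.

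The higher exon peaks named in Supt7l KO were at Cars, Fcsk and Zmiz1. Cars, the cysteinyl-tRNA synthetase gene, had a peak in exon 2 of 23 (chr7:143592149-143592976) at 10.8, 9.25, 8.27 and 9.8 CPM in WT and 20.1, 22.7, 14.5 and 17.1 in Supt7l KO. AID-Zzz3 had 17, 8.43, 16.3 and 12.3 and AID-Yeats2 had 13.1, 17.7, 14 and 14.9, so Supt7l KO and AID-Yeats2 were both wholly above WT. The log2 change in Supt7l KO was 0.97 (SE 0.21, adjusted p = 0.00636; lost without Supt7l KO 2 or WT 3, adjusted p 0.0509 to 0.0581). Fcsk, the fucose kinase gene, had a peak in exon 18 of 24 (chr8:110886920-110887525) that rose from 4.05 ± 0.859 to 9.64 ± 1.31 CPM, a log2 change of 1.24 (SE 0.29, adjusted p = 0.0154; lost without Supt7l KO 4, WT 2 or WT 3, adjusted p 0.0501 to 0.0856). The Zmiz1 peak in exon 23 of 24 (chr14:25661205-25661809), which holds the Gm52102 start printed above and lies outside the distal block, had 16.4, 10.2, 8.63 and 15.8 CPM in WT. It had 20.6, 25.6, 23.1 and 21.3 in Supt7l KO, all above WT, and 9.39 to 15.5 in the AID lines, which overlapped WT. At this peak WT 1 and WT 4 stood above WT 2 and WT 3, as they did in the distal block of chromosome 14. Whether the peak follows the block was not tested. Zmiz1 encodes a transcriptional coregulator, and the log2 change was 0.83 (SE 0.2, adjusted p = 0.0163; lost without Supt7l KO 2, WT 2 or WT 3, adjusted p 0.0728 to 0.161).

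Among the lower exon peaks in Supt7l KO, Thsd1, a thrombospondin-domain gene, had the smallest p. Its peak in exon 3 of 5 (chr8:22242743-22243862) held 19.9, 18, 21.6 and 19.4 CPM in WT, 20.3, 20.7, 24.2 and 23.8 in AID-Zzz3, 19.8, 29.2, 22.4 and 27.1 in AID-Yeats2 and 11.3, 9.02, 9.84 and 9.11 in Supt7l KO. The Supt7l KO libraries lay below all others, the log2 change was -1.01 (SE 0.19, adjusted p = 0.00094), and the call was kept in all 8 fits that left out 1 library. Btbd11, a BTB-domain gene, had a peak in exon 3 of 17 (chr10:85561161-85561891) that fell from 9.02 ± 1.55 to 4.06 ± 0.958 CPM, a log2 change of -1.14 (SE 0.28, adjusted p = 0.0217; lost without Supt7l KO 1, Supt7l KO 4, WT 2 or WT 3, adjusted p 0.0505 to 0.104). The Peg3 exon, called higher in AID-Yeats2, was lower in Supt7l KO with a log2 change of -1.21 (SE 0.32, adjusted p = 0.0344; lost without any Supt7l KO library, WT 2 or WT 3, adjusted p 0.0574 to 0.197).

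The lower gene-end peaks named in Supt7l KO included 2 calls kept in every fit that left out 1 library. The 3' UTR of Sumf1, whose product activates sulfatases (chr6:108107089-108107897), held 24, 30.5, 25 and 30.6 CPM in WT and 13.2, 16.4, 15.1 and 19.6 in Supt7l KO. AID-Zzz3 had 24.6 to 26.6 and AID-Yeats2 had 20.5 to 30.7, so Supt7l KO stood apart from every other library, with a log2 change of -0.77 (SE 0.17, adjusted p = 0.00625). The TTS peak of Rasgrp3, a Ras activator gene (chr17:75529337-75530165), held 8.57, 13.9, 10.8 and 6.69 CPM in WT, 11, 14.5, 14.4 and 19.3 in AID-Zzz3, 10.3, 9.86, 9.35 and 18.5 in AID-Yeats2 and 4.41, 3.57, 1.23 and 4.69 in Supt7l KO. Its log2 change was -1.49 (SE 0.29, adjusted p = 0.00203). It lies in the distal block of chromosome 17, whose median change in this comparison was -0.61, and relative to that median the change was -0.88. The other called peak of the block, in an exon of the potassium channel gene Kcnk12, stood at -0.84 (adjusted p = 0.0364), or -0.23 relative to it, and was lost without any library but WT 1 (adjusted p 0.0506 to 0.179) and with DESeq2 (0.0523). At Kcnk12 the groups overlapped. Dmtn, the 1 called exon peak of distal chromosome 14, stood at 0.82 (adjusted p = 0.0322), or 0.5 relative to the block median of 0.32, and was lost without Supt7l KO 2, Supt7l KO 4, WT 2 or WT 3 (adjusted p 0.0805 to 0.205). The TTS peak of Zfp37, a KRAB zinc finger gene (chr4:62188379-62189465), fell from 19.5 ± 3.17 to 10.7 ± 2.55 CPM, a log2 change of -0.86 (SE 0.2, adjusted p = 0.0123; lost without Supt7l KO 2, Supt7l KO 3 or WT 3, adjusted p 0.0509 to 0.0887).

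**Figure D3:**
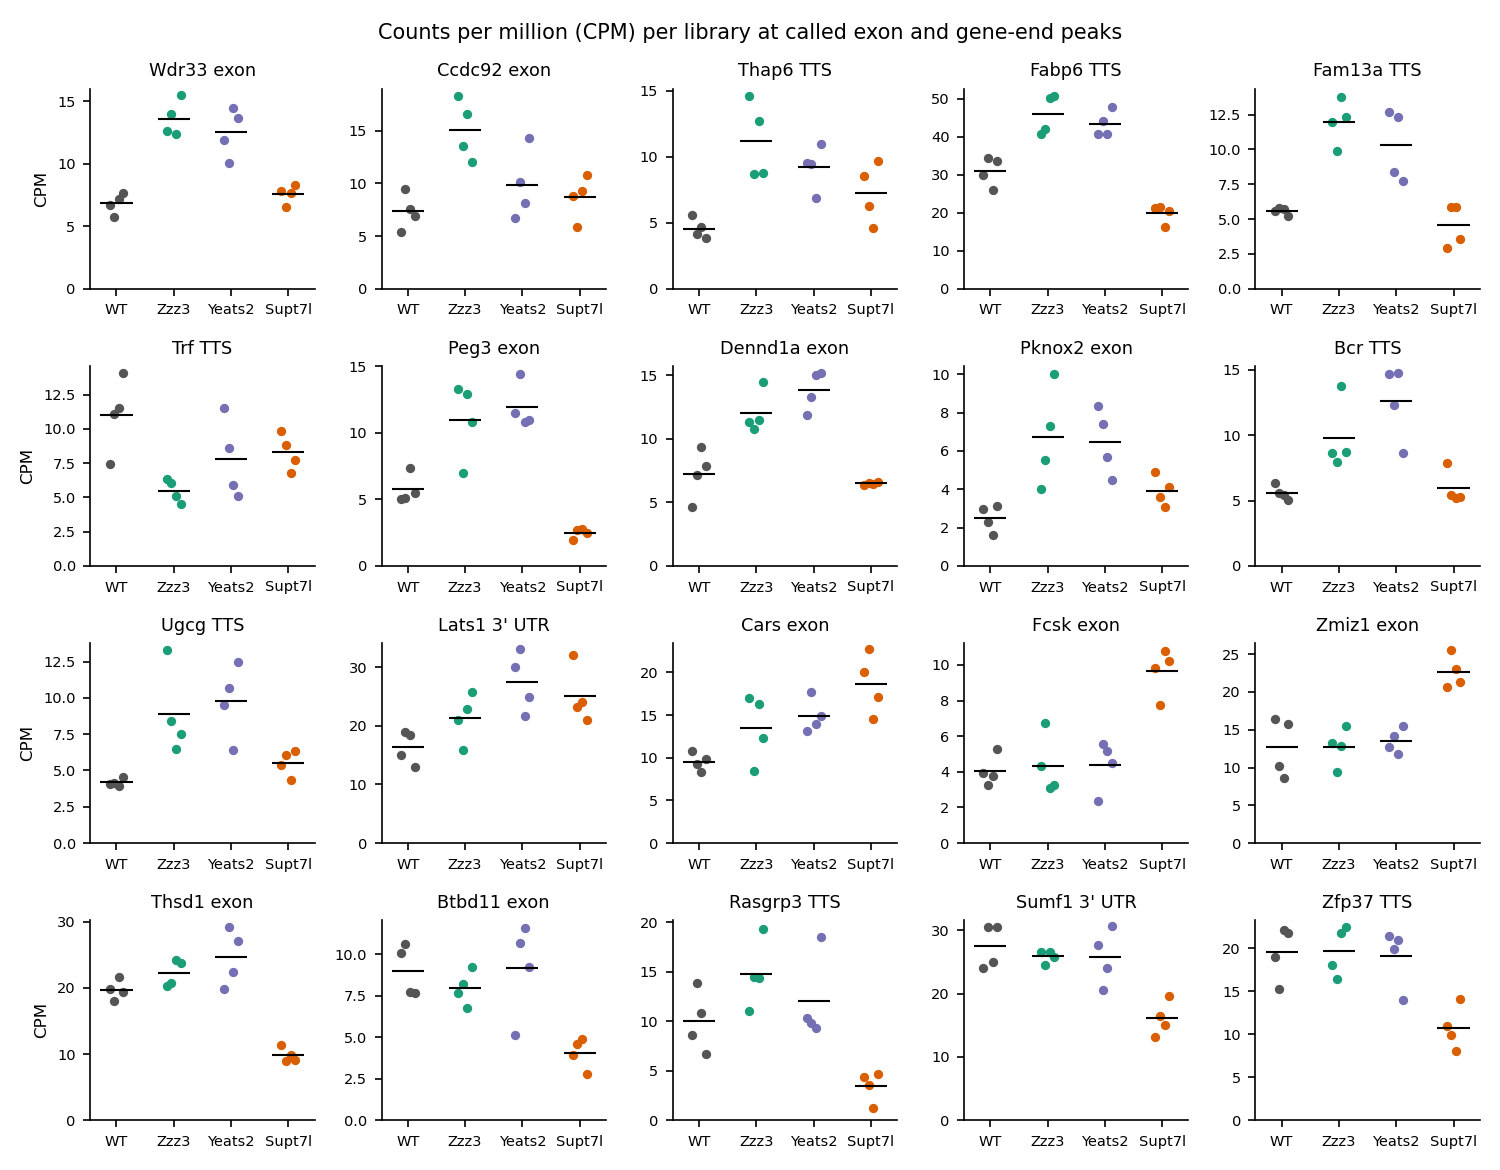
CPM per library at 20 called peaks named for the 3 comparisons with WT, with 1 point per library, a bar for the mean of 4 and axes starting at 0. At Fabp6 both AID lines lie above and Supt7l KO below WT, at Peg3 AID-Yeats2 lies above, Supt7l KO below and AID-Zzz3 overlaps WT by 1 library, while at Thsd1, Sumf1 and Zfp37 the AID lines lie with WT and Supt7l KO stands below.

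Of the 27 peaks called in either AID line, 5 were called in both, which is 27.8% of the AID-Zzz3 calls and 35.7% of the AID-Yeats2 calls. Those described here were Wdr33 (log2 change 1 and 0.87), Ttc9 (1.02 and 1.02), Ugcg (1.07 and 1.22) and Pknox2 (1.44 and 1.36), each higher in both, and both comparisons use the same WT libraries. Wdr33 in AID-Yeats2 was lost without any 1 library (adjusted p 0.0574 to 0.151) and with loess offsets (0.0716). Ugcg in AID-Zzz3 was kept in the fits without AID-Zzz3 2 or AID-Zzz3 3 (adjusted p 0.0596 to 0.176 in the others) and lost with loess offsets (0.0575), and Ttc9 was lost with them in both lines (0.0666 and 0.0836). Of the peaks called in Supt7l KO, 2 were also called in an AID line, Fabp6 (-0.62 in Supt7l KO, adjusted p = 0.0131, lost without Supt7l KO 3 or WT 2, adjusted p 0.0672 to 0.0801) and Peg3, both lower in Supt7l KO and higher in the AID line. In all, 43 peaks were called in any mutant against WT. The matching overlaps over all tested peaks are not given, so whether these overlaps are particular to the set cannot be told. A peak called in 1 AID line and not in the other was not shown to differ between them: AID-Yeats2 against AID-Zzz3 gave 0 calls in the set and 0% over all tested peaks by edgeR, also 0 by DESeq2. At an unadjusted p under 0.05 there were 109 peaks of the set (5.14%), beside 5.13% over all tested peaks.

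More peaks were called between the AID lines and Supt7l KO, a comparison with 8 libraries on 1 side. Between the mean of both AID lines and Supt7l KO, 168 peaks were higher in the AID lines and 75 were lower, or 11.5% of the set. Over all tested peaks 8.57% were higher and 8.98% lower, 17.6% in either direction. Exon peaks gave 95 higher and 37 lower (12.7%), and gene-end peaks 73 and 37 (10.3%), with 43 and 19 at TTS and 30 and 18 in 3' UTRs. The shares called were 13.5% in introns, 17.3% in intergenic peaks and 24.7% at promoters, where lower calls prevailed (21.3% lower and 3.44% higher). Groups did not overlap in 81 of the 243 called peaks, which selection by p favours. Of the 243, 210 were called in no mutant against WT, and the matching share over all called peaks is not given. The count of lower peaks was 47 without Supt7l KO 1 and 42 without Supt7l KO 2. Replicates 1 and 2 alone gave 50 higher and 16 lower, and replicates 3 and 4 alone gave 84 and 36. With scaling by library totals the split was 212 higher and 36 lower. Outside the distal blocks it was 155 and 59, and the shares over all peaks outside them are not given. Of the 243 calls, 157 were kept with loess offsets, 204 with library totals and 222 with DESeq2.

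**Figure D4:**
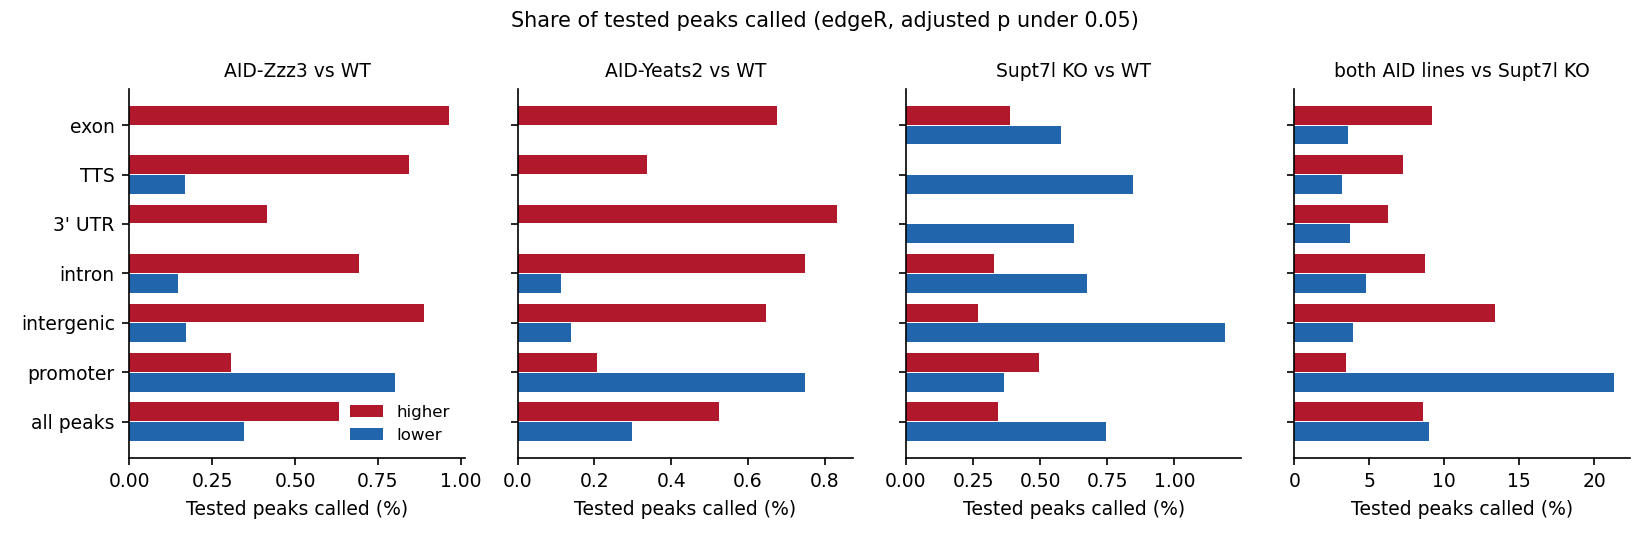
Percent of tested peaks called higher (red) and lower (blue) by edgeR in each comparison, by peak class, on a separate scale for each panel. In the panel of both AID lines against Supt7l KO, exon, TTS and 3' UTR peaks have more higher than lower calls, as introns do, while promoters have 21.3% lower.

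The higher peaks with the smallest p in that comparison were Fabp6, Peg3 and Thsd1, whose values are given above. Fabp6 differed by 1.15 on the log2 scale (SE 0.13, adjusted p = 1.85e-10), Peg3 by 2.19 (SE 0.27, adjusted p = 7.16e-09) and Thsd1 by 1.26 (SE 0.17, adjusted p = 5.69e-08), each with all 8 AID libraries above all 4 Supt7l KO libraries and each kept whichever library was left out. The 3 lower peaks with the smallest p all lay in the distal block of chromosome 14, whose median difference was -0.49. Lacc1, a gene of macrophage metabolism (exon 7 of 8, chr14:77029213-77029964), held 18.3, 9.71, 12.2 and 17.2 CPM in WT, 7.71 to 10.7 in AID-Zzz3, 8.12 to 11.9 in AID-Yeats2 and 19.7 to 24.5 in Supt7l KO. Its difference was -1.2 (SE 0.18, adjusted p = 5.39e-07), or -0.71 relative to the block. The TTS peak of Npm2, an oocyte nucleoplasmin gene (chr14:70646943-70647859), differed by -0.77 (adjusted p = 0.000102), or -0.28 relative to the block, and an exon of the transporter gene Abcc4 (chr14:118490108-118491116) by -1.08 (adjusted p = 0.000108), or -0.58. In all, 16 of the 36 tested peaks of the set in this block were lower and 0 higher, and in the block of chromosome 17, with a median difference of 0.90, 13 of 25 were higher and 0 lower. The median difference of the set's own peaks was -0.55 in the first block and 0.79 in the second, near those of all peaks there. The shares called over all peaks of the blocks are not given. Whether these differences belong to the mutations or to the blocks cannot be told apart.

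Outside these blocks, the 3 lower peaks with the smallest p, chosen after their values were seen, were exons of Zmiz1, Fcsk and Alpk1. Zmiz1 differed by -0.78 on the log2 scale (SE 0.17, adjusted p = 0.000669) and Fcsk by -1.1 (SE 0.25, adjusted p = 0.00116), both called higher in Supt7l KO against WT as described above. Zmiz1 lies on chromosome 14 below the block's limit of 60 Mb, and its WT libraries split as those of the block did. Alpk1, an alpha-kinase gene of innate immunity (exon 4 of 14, chr3:127695113-127695995), held 19.9, 12, 15.3 and 14.6 CPM in WT, 13, 11.6, 15.2 and 13.5 in AID-Zzz3, 6.74, 12.7, 12.6 and 13.7 in AID-Yeats2 and 18.2, 15.1, 24.9 and 26.5 in Supt7l KO. The lowest Supt7l KO library overlapped the AID lines there, and the difference was -0.75 (SE 0.18, adjusted p = 0.00165). All 3 calls were kept in the 12 fits that left out 1 library.

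The other calls in AID-Zzz3 against WT were higher peaks, all but Lingo2 lost without several libraries. The last exon of Lingo2 rose from 9.21 ± 3.2 to 19 ± 5.36 CPM (log2 change 1.06, adjusted p = 0.00697; lost without AID-Zzz3 3, adjusted p 0.0711). Its groups overlapped, with WT 4 at 13.4 CPM and AID-Zzz3 1 at 12. Exon 33 of 37 of Atp8a1, a phospholipid flippase gene, rose by 1.13 (adjusted p = 0.0189; lost without AID-Zzz3 3, AID-Zzz3 4, WT 1 or WT 4). The last exon of Gprin3 rose by 0.82 (adjusted p = 0.0259; lost without AID-Zzz3 3, AID-Zzz3 4, WT 1, WT 2 or WT 3). Exon 35 of 104 of Ryr3, a calcium release channel gene, rose by 1.05 (adjusted p = 0.0343; lost without AID-Zzz3 1, AID-Zzz3 3, WT 1, WT 3 or WT 4), and the WT range overlapped AID-Zzz3. The TTS peak of the collagen gene Col12a1 rose by 1.32 (adjusted p = 0.0381; kept without AID-Zzz3 2 or WT 4), and the 3' UTR of Smim3 rose by 0.88 (adjusted p = 0.0386; kept without AID-Zzz3 4 or WT 1). The 3' UTR of Ttc9, at 4.9 ± 1.14 CPM in WT, 9.93 ± 1.73 in AID-Zzz3 and 9.83 ± 1.69 in AID-Yeats2, passed in both lines (adjusted p = 0.046 and 0.0493) and in neither once any library was left out. Where these calls were lost, the adjusted p was 0.052 to 0.173. Ryr3 was also lost with DESeq2 (0.0521) and Col12a1 with loess offsets (0.052).

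In AID-Yeats2 the other higher peaks were in the 3' UTRs of Syne1 and Ntng1 and the last exons of Dcbld1 and Mgat4e. Syne1, which encodes a giant protein of the nuclear envelope, rose from 2.54 ± 1.07 to 6.93 ± 1.48 CPM (log2 change 1.4, adjusted p = 0.0296; kept without AID-Yeats2 3 or WT 3). Ntng1, a netrin-G gene, rose from 20.1 ± 3.76 to 31.5 ± 4.91 CPM (0.65, adjusted p = 0.0344; lost without AID-Yeats2 2, AID-Yeats2 4, WT 1 or WT 4). Dcbld1 rose by 0.8 (adjusted p = 0.0384; kept without AID-Yeats2 1 or WT 3) and Mgat4e by 0.64 (adjusted p = 0.0468; kept without AID-Yeats2 2). At Dcbld1 the groups overlapped. Where these calls were lost, the adjusted p was 0.0517 to 0.16.

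In Supt7l KO the other lower peaks included the TTS of Smtnl1, which fell from 10.1 ± 2.8 to 4.58 ± 0.945 CPM (log2 change -1.16, adjusted p = 0.0123; lost without Supt7l KO 2 or WT 3). The TTS of Hopx, a homeodomain-only gene, fell by 0.99 on the log2 scale (adjusted p = 0.0186; kept without Supt7l KO 3 or WT 1), and exon 6 of 40 of Prex2, a Rac activator gene, fell by 1.48 (adjusted p = 0.0269; kept without Supt7l KO 3 or WT 1). The 3' UTR of Rftn1, a lipid raft gene, fell by 1.16 (adjusted p = 0.0402; kept without Supt7l KO 1, WT 1 or WT 4). At Hopx, Prex2 and Rftn1 the Supt7l KO libraries overlapped WT. Kcna2, a potassium channel gene, had a 3' UTR peak that fell from 27 ± 1.37 to 17.6 ± 4.65 CPM (log2 change -0.61, adjusted p = 0.0486; kept without Supt7l KO 1). Where these calls were lost, the adjusted p was 0.0525 to 0.347. Rftn1 was also lost with DESeq2 (0.0577) and loess offsets (0.0534).

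Grouped by gene family, the set held few members of each list, and the lists were matched by symbol. Zinc finger genes gave 60 peaks (59 tested, median WT level 10.8 CPM). Against WT, Zfp787 was higher in AID-Zzz3 (log2 change 0.58, adjusted p = 0.0474; lost without AID-Zzz3 1, AID-Zzz3 3, WT 1, WT 3 or WT 4, adjusted p 0.102 to 0.195, and with DESeq2, 0.0537) and Zfp37 was lower in Supt7l KO, and between the AID lines and Supt7l KO 9 were higher and 4 lower (15.3% and 6.78%, against 8.57% and 8.98% over all tested peaks). At Zfp787 the AID-Zzz3 libraries overlapped WT. The median change of the family was 0.066 in AID-Zzz3, 0.11 in AID-Yeats2 and -0.0012 in Supt7l KO, beside -0.0052, -0.0015 and 0.0066 over all peaks. The zinc finger peak with the highest WT level, the last exon of Zfp697, stood at 43.7 ± 2.77 CPM in WT, 48.1 ± 5.83 in AID-Zzz3, 41.5 ± 4.07 in AID-Yeats2 and 46.1 ± 6.71 in Supt7l KO, and did not pass in any comparison. The last exon of Zfp771, the second highest, stood at 38.6 ± 3.24 CPM in WT and 39 ± 6.28 in Supt7l KO against 27.2 ± 8.04 in AID-Zzz3 and 29.6 ± 3.77 in AID-Yeats2. It passed between the AID lines and Supt7l KO (-0.47, adjusted p = 0.00708; lost without Supt7l KO 2, adjusted p 0.0702, and with loess offsets, 0.101). Against WT it did not pass, save for AID-Zzz3 with the replicate sets as a block (-0.49, adjusted p = 0.0848 without and 0.0366 with the block).

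Imprinted genes gave 3 peaks, all in exons, at Peg3, Zim1 and Plagl1. That of Plagl1 stood at 8.27 ± 2.26 CPM in WT and did not pass in any comparison. Zim1 lies beside Peg3 on chromosome 7 and is expressed from the maternal allele. Its peak in the last of 8 exons (chr7:6677183-6678009) held 3.17, 3.01, 4.5 and 3.58 CPM in WT, 6.66, 5.06, 12.7 and 8.75 in AID-Zzz3, 9.91, 6.57, 8.62 and 5.66 in AID-Yeats2 and 4.66, 2.31, 4 and 3.04 in Supt7l KO. Both AID lines were above every WT library and Supt7l KO overlapped WT. The log2 change was 1.2 in AID-Zzz3 (SE 0.31, adjusted p = 0.0332; lost without AID-Zzz3 3, AID-Zzz3 4, WT 1, WT 2 or WT 4, adjusted p 0.0791 to 0.241) and 1.08 in AID-Yeats2 (SE 0.31, adjusted p = 0.0701), which did not pass but did with the replicate sets as a block (0.0408). Between the AID lines and Supt7l KO it was 1.19 (SE 0.29, adjusted p = 0.00209).

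Naive pluripotency genes gave 5 peaks. The 3' UTR of Fgf4 is a textbook enhancer bound by Oct4 and Sox2, and its peak (chr7:144864302-144864585) held 7.26, 7.4, 7.55 and 6.69 CPM in WT, 6.99, 8.43, 7.32 and 7 in AID-Zzz3, 11.1, 8.62, 7.63 and 5.96 in AID-Yeats2 and 7.36, 3.57, 10.8 and 6.9 in Supt7l KO. The genotypes overlapped, with log2 changes of 0.043, 0.19 and -0.05 (SE 0.27 each), none of which passed. Of the 2 peaks of Zfp42, which encodes the marker REX1, the exon peak was at 8.03 ± 1.84 CPM in WT, 11.4 ± 3.2 in AID-Zzz3, 11 ± 1.46 in AID-Yeats2 and 7.35 ± 1.14 in Supt7l KO. It passed between the AID lines and Supt7l KO (log2 difference 0.62, SE 0.22, adjusted p = 0.0416), a call kept in 3 of 12 fits that left out 1 library, those without AID-Zzz3 1, AID-Yeats2 3 or Supt7l KO 4 (adjusted p 0.0501 to 0.149 in the others), and lost with loess offsets (0.0902). The TTS peaks of Dppa2 (19 ± 5.16 CPM in WT), of Tet1, a DNA demethylase gene (7.93 ± 2.54), and of Zfp42 (6.27 ± 0.249) did not pass in any comparison. Fgf4, Tet1 and Zim1, like Trrap and Hoxc9 below, were described after their values were seen.

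Developmental transcription factors gave 27 peaks by symbol, of which 4 belong to Enah, Enc1, Endod1 and Engase, which are not transcription factors. None passed against WT. The 3' UTR of Zic4 was higher in the AID lines than in Supt7l KO (log2 difference 0.65, adjusted p = 0.00269), at 21.2 ± 4.93 and 24.6 ± 1.73 against 14.5 ± 2.99 CPM, with WT at 21.7 ± 1.69. An exon of Nkx2-6, in the distal block of chromosome 14, was lower (-0.68, adjusted p = 0.000602, or -0.18 relative to the block). The exons with the highest WT level, of Foxk1 (38.5 ± 0.725 CPM) and of Otx1 (32.8 ± 4.77 CPM), did not pass in any comparison. The 1 Hox peak, in exon 2 of 3 of Hoxc9, was lower in the AID lines than in Supt7l KO (-0.59, adjusted p = 0.046), at 7.36 ± 2.44 and 7.76 ± 1.51 against 11.3 ± 1.81 CPM. That call was kept in 3 of 12 fits that left out 1 library, those without AID-Zzz3 1, AID-Yeats2 3 or Supt7l KO 4 (adjusted p 0.0546 to 0.166 in the others), and it was lost with library totals (0.083).

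Signalling ligands and receptors gave 21 peaks by symbol, 3 of them at Bmp2k and Tgfb1i1, which are neither. None passed against WT, and between the AID lines and Supt7l KO 2 Wnt ligand genes were lower (9.52%, against 8.98% lower over all tested peaks), the 3' UTR of Wnt3 (-0.66, adjusted p = 0.00453; 11.4 ± 2.28 and 13.7 ± 3.32 against 19.7 ± 2.95 CPM) and the last exon of Wnt10a (-0.34, adjusted p = 0.038). The Wnt3 call was kept whichever of the 12 libraries was left out, and the Wnt10a call in those without AID-Zzz3 2, AID-Zzz3 3, AID-Yeats2 1, AID-Yeats2 4 or Supt7l KO 4 (adjusted p 0.0502 to 0.134 in the others). Wnt10a was also lost with loess offsets (0.352) and library totals (0.103). RNA-binding and splicing genes gave 17 peaks, with none called against WT. In the AID lines 3 were higher than in Supt7l KO and 0 lower (17.6%, against 8.57% higher and 17.6% in either direction over all tested peaks). They were the TTS peaks of Hnrnpa2b1 (0.38, adjusted p = 0.0262; lost without AID-Zzz3 1, Supt7l KO 1 or Supt7l KO 2) and Ddx31 (0.62, adjusted p = 0.0393; kept without AID-Zzz3 2, AID-Zzz3 4, AID-Yeats2 2, AID-Yeats2 4 or Supt7l KO 3) and the 3' UTR of Hnrnpd (0.83, adjusted p = 0.0444; kept without AID-Zzz3 4, AID-Yeats2 4 or Supt7l KO 4), with adjusted p 0.0525 to 0.194 where a call was lost. With loess offsets Ddx31 (0.081) and Hnrnpd (0.124) were lost. Ribosomal protein genes gave 1 peak, the TTS of Rps15a (40.9 ± 1.61 CPM in WT), since the other 2 that matched by symbol were at the kinase gene Rps6kb1, and none of the 3 passed. With the replicate sets as a block Rps15a passed in AID-Yeats2 against WT (adjusted p = 0.0388, 0.137 without the block) and between the AID lines and Supt7l KO (0.0178, 0.0516 without it). The 1 ATAC or SAGA subunit peak lay in exon 20 of 71 of Trrap, the large scaffold of SAGA. It stood at 9.29 ± 1.1 CPM in WT, 7.4 ± 2.88 in AID-Zzz3, 9.45 ± 1.39 in AID-Yeats2 and 8.72 ± 2.89 in Supt7l KO and did not pass. The 1 histone peak, at H2bc6, did not pass either, and clustered protocadherins, snoRNA and snRNA genes had none.

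The median change of exon and gene-end peaks also followed distance from the nearest TSS. In the 1222 tested peaks within 10000 bp the median log2 change was -0.0067 in AID-Zzz3, 0.018 in AID-Yeats2 and -0.001 in Supt7l KO. In the 816 peaks over 10000 and up to 50000 bp away it was 0.042, 0.048 and -0.035, and in the 81 peaks beyond 50000 bp it was 0.18, 0.18 and -0.13. Beyond 50000 bp, 16 peaks (19.8%) were higher in the AID lines than in Supt7l KO and 0 were lower, with a median difference of 0.34. At that distance 15.1% of intron and 21.9% of intergenic peaks were higher, so the share lay between theirs. Exon and gene-end peaks gave like values there, 0.36 over 43 and 0.3 over 38. Intron peaks at that distance had medians of 0.16, 0.1 and -0.071 (2088 peaks) and intergenic peaks 0.19, 0.17 and -0.12 (4345 peaks), the same order with distance. These medians carry no test, and 81 peaks are few beside the other bins.

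**Figure D5:**
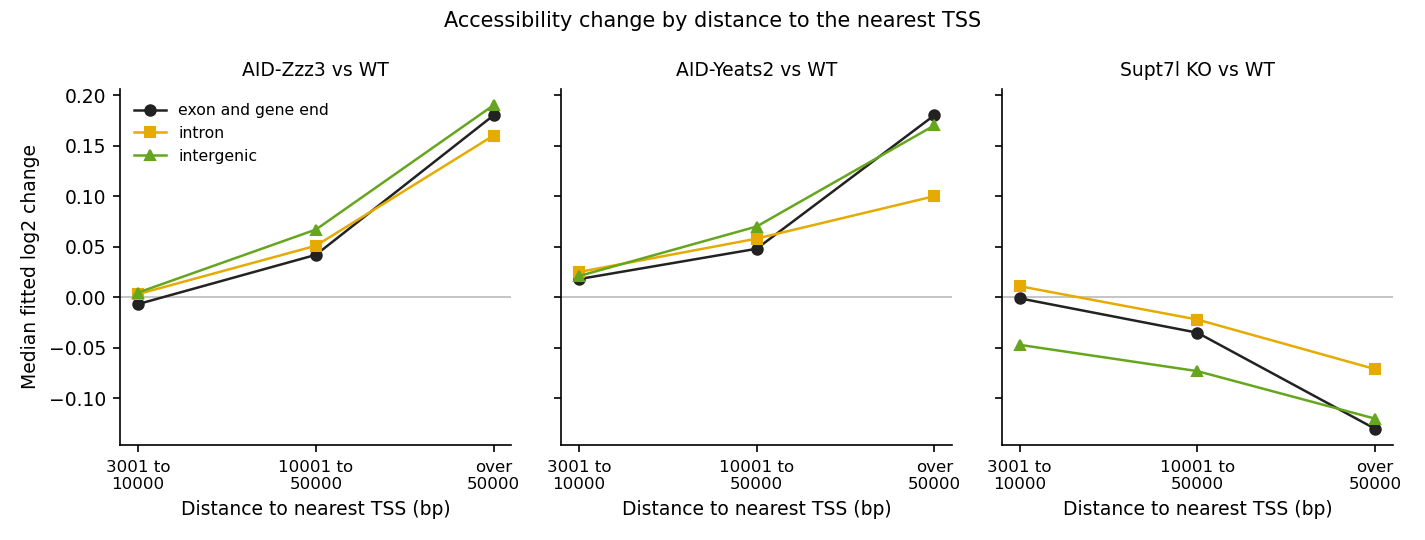
Median fitted log2 change of each mutant against WT, by distance to the nearest TSS, for exon and gene-end peaks (circles), intron peaks (squares) and intergenic peaks (triangles). In the AID lines the medians of all 3 kinds are higher with distance, between 0.10 and 0.19 beyond 50000 bp, and in Supt7l KO they are lower, between -0.13 and -0.071.

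The authors' own comparisons called more of the set. In the authors' deposited table, at an adjusted p under 0.05, 24 of these peaks were higher and 4 lower in AID-Zzz3, 24 and 4 in AID-Yeats2, and 7 and 16 in Supt7l KO. These were 1.31%, 1.31% and 1.08% of the set in either direction, against 1.42%, 1.28% and 1.29% of all peaks in the authors' deposited table. These shares count peaks without an adjusted p too: 1848, 2058 and 2058 of the 2132 had one. The methods differ, since the authors' table is named for DESeq2 and a batch or day, while the main fit here was edgeR without a covariate. Of the peaks called here, 17 of 18, 14 of 14 and 17 of 18 were also called in the authors' deposited table, in AID-Zzz3, AID-Yeats2 and Supt7l KO in turn.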

How the data were processed

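ATAC-seq was done on 100000 cells per library with 25 nM Tn5, 14 PCR cycles and paired reads of 100 bp, per the labels' protocols. The submitters' processing notes name the mm10 build and these tools: HOMER, DESeq2 1.16.1, bedtools 2.26.0, MACS2 2.1.1.20160309, Bowtie2 2.2.6 and bcl2fastq 2.17.1.14. The authors deposited 1 table of merged peaks with raw counts per library, the distance to the nearest TSS in bp, and log2 fold changes and adjusted p-values of their own comparisons. Per the file headers the nearest genes are those of Ensembl 94. The second annotation, which gave the classes used here, names RefSeq transcripts, and 2115 of the 2132 peaks were matched to a RefSeq gene by them. The Ensembl annotation of the same peaks called 1243 exon, 856 TTS, 12 intron and 21 intergenic, so the classes depend on the annotation. The 16 columns of normalised values in that table were not used.

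Counts were tested with edgeR 4.0.16 (R 4.3.3, limma 3.58.1; pandas 2.3.3 and numpy 2.4.6 for summaries): TMM scaling, filterByExpr on all peaks (69692 tested, 458 removed, 13 of them in the set), 1 quasi-likelihood fit over the 4 genotypes, two-sided tests, and Benjamini-Hochberg adjustment over all tested peaks with a threshold of 0.05. Standard errors are the absolute log2 change over the square root of F. CPM are counts over TMM-scaled library sizes, and log2 values per library use a prior count of 2. Counting depth limits the precision: the median mean count was 39.2 per exon peak and 30.5 per gene-end peak.

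Peaks were named by rule. For each mutant against WT these were up to 3 exon and 3 gene-end called peaks per direction with the smallest p and no overlap between groups, and up to 3 per direction for the other comparisons. The 4 densest peaks of each class in WT, the called peaks and the 2 highest of family lists of at least 3 peaks, and any peak at the targeted genes were added, and predicted genes were passed over. Some called peaks are counted but not reported here by name. The peak set, lists and rules were chosen with earlier results of these data known. Alternatives were RLE size factors (edgeR), library totals, loess offsets, no filter, a block for the replicate number or replicate set, DESeq2 1.42.0, only the groups compared, other distance limits, a level limit and leaving out each library. Start sequences are from RefSeq (GRCm38.p6). Peak sequences were not used here.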

Additional observations from a re-analysis of the deposited data

Results flagged for a closer look

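Of 112 groups of 4 libraries examined, 6 had 1 library far from the other 3, beside about 1 in 20 that chance gives. In the exon minus gene-end median, WT 1 stood at -0.0647 (the others 0.00289 to 0.0161), AID-Zzz3 3 at 0.0949 (0.00371 to 0.011) and AID-Yeats2 1 at -0.035 (0.0353 to 0.0492). Among the named peaks, AID-Zzz3 3 stood at 13.8 CPM at Bcr (7.95 to 8.75), Supt7l KO 1 at 7.85 CPM at Bcr (5.23 to 5.46) and AID-Yeats2 4 at 18.5 CPM at Rasgrp3 (9.35 to 10.3). No cause was tested.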

How the results depend on the processing

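No call changed direction under another scaling, filter, block or tool, while class medians near 0 changed sign under some settings: the gene-end medians of all 3 mutants (Supt7l KO -0.031, and 0.0053 above the median level), the Supt7l KO exon median, and the exon minus gene-end median of Supt7l KO (0.029, and -0.0077 in replicates 3 and 4 alone). Of the 50 calls against WT, 50 were kept under RLE size factors, no filter and either block, 49 with library totals, 43 with loess offsets and 45 with DESeq2. Of the 243 between the AID lines and Supt7l KO, 243 were kept under RLE size factors, no filter and the set block, 242 with the replicate block, 204 with library totals, 157 with loess offsets and 222 with DESeq2. Of the 27 calls with the smallest p that the naming rule chose, 27 kept their call under RLE size factors, library totals, loess offsets, no filter, either block and DESeq2, and 26 with only the groups compared. With replicates 1 and 2 alone 6 were kept and with 3 and 4 alone 9, where 4 libraries per comparison are fewer. The 240 fits of a named call without 1 library kept 170. Whether replicate numbers pair the libraries was not tested. Same-number correlations were all positive, 0.0163 to 0.111 over 24 pairs with 1 above 0.1, and pairs within a replicate set had the same range. Of the 16 libraries, 11 correlated best with a library of their own number.

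Higher calls in AID-Zzz3 (17) were 22 with the replicate block, 0 in replicates 1 and 2 alone and 6 in 3 and 4 alone. The 1 lower call became 5 with the replicate block, 7 with the set block, 0 and 2 in the sets alone, and 5 and 0 at a minimum distance of 1000 and 5000 bp. Higher calls in AID-Yeats2 (13) became 27 with the replicate block, 29 with the set block, 21 with DESeq2 and 0 in each set. The 1 lower call became 0 with library totals, 0 with loess offsets, 9 with either block, 2 with DESeq2, 5 with only the groups compared, 0 in replicates 3 and 4 alone and 2 at 1000 bp. In Supt7l KO the 4 higher calls became 7 with the replicate block, 0 and 1 in the sets and 2 at 5000 bp, and the 14 lower calls 2 and 3 in the sets. Between the AID lines and Supt7l KO the 168 higher calls became 50 and 84 in the sets, and the 75 lower calls 36 with library totals and 16 and 36 in the sets. The cause of these moves was not tested.

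The median change of exon peaks in AID-Zzz3 was 0.011 above the median level. That of gene-end peaks was 0.024 in replicates 3 and 4. In AID-Yeats2 the exon median was 0.079 with library totals and 0.021 above the median level, and the gene-end median 0.051, -0.0045 with loess offsets and -0.012 above the median level. In Supt7l KO the exon median was -0.041 with library totals, -0.032 in replicates 3 and 4 and 0.03 above the median level. The WT ratio of exon to gene end was 1.29 per peak.

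Without 1 library, the calls ranged from 4 to 22 higher and 0 to 3 lower in AID-Zzz3, 1 to 8 and 0 to 3 in AID-Yeats2, 0 to 5 and 4 to 17 in Supt7l KO, 122 to 173 and 42 to 80 between the AID lines and Supt7l KO, and 0 to 0 between the AID lines. The exon, gene-end and difference medians ranged from 0.035 to 0.062, -0.033 to 0.0037 and 0.032 to 0.084 in AID-Zzz3, from 0.04 to 0.056, 0.0082 to 0.037 and 0.0035 to 0.039 in AID-Yeats2, and from -0.016 to 0.0022, -0.048 to -0.016 and 0.0078 to 0.04 in Supt7l KO, and the WT ratio from 0.931 to 0.941. Depth limits single peaks: the median biological coefficient of variation was 0.181 for exon and 0.199 for gene-end peaks.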
